A study of Mus musculus with 4 samples.

Results

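Peaks of the m6A readers IGF2BP2, YTHDF2 and YTHDC1 were examined where their summits lay in 3' untranslated regions (3' UTRs), the stretch of a messenger RNA between the stop codon and the poly(A) tail. A peak was taken when its summit, the base with the highest read pileup, fell in a 3' UTR of a protein-coding gene in the GENCODE M21 annotation of the mouse build GRCm38 and in coding sequence (CDS) of no transcript of that gene. Of 19866 peaks in 3 lists, 1140 were such peaks: 244 of 7069 for IGF2BP2, 196 of 2834 for YTHDF2 and 700 of 9963 for YTHDC1. The cells were the lin- ckit+ fraction of mouse bone marrow, labelled LIC, which the series title places in work on acute myeloid leukaemia stem cells. No genotype, treatment or age was used to form groups: the immunoprecipitated protein alone separates the 3 libraries, and 1 more library was the input. All 4 came from cells crosslinked with 3 exposures of 120 mJ per cm2 at 254 nm and were amplified for 20 cycles. With 1 library for each reader there is no replicate, and sequencing depth is unknown. Every interval printed here is an exact (Clopper-Pearson) 95% interval that covers counting error only.

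N6-methyladenosine (m6A) is a common internal mark of messenger RNA, placed mainly at adenosines preceded by purines and followed by C, with GGAC as its best-known core. It is known to be dense around stop codons and in the 3' UTR, the part of a message that also carries most binding sites for microRNAs and for proteins that set its decay, such as those reading AU-rich elements. IGF2BP2 is known for stabilising and storing mRNA, YTHDF2 for recruiting deadenylases, and YTHDC1 for roles in the nucleus in splicing and export.

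A few sites are printed first, chosen after their letters were seen, to show the range of sequence under the summits of named genes. They are not the strongest summits in order. All are 24 bases of the transcript strand, read 5′ to 3′ from the GENCODE M21 transcripts of GRCm38, with T for U. The first set shows 5 G-rich sites, each centred on a summit, with runs of at least 3 G in capitals. They are Nfe2l1 (chr11:96818920-96818943, minus strand, the summit of YTHDC1 and YTHDF2), Maz (chr7:127022573-127022596, minus, YTHDF2), Ltbr (chr6:125306671-125306694, minus, YTHDC1), Polr3b (chr10:84725882-84725905, plus, YTHDC1) and Laptm5 (chr4:130935851-130935874, plus, IGF2BP2).
Nfe2l1: cctttctcttgaGGGGaGGGtagt
Maz: GGGtaGGGaggagagaggaGGGGa
Ltbr: GGGGaggatGGGGccttGGGtagc
Polr3b: gcagaggaggaggaggaagaagag
Laptm5: tggccgccctGGGGGtggctgtct
These 5 sites held between 9 and 16 G among their 24 bases. Polr3b held no run of 3 G but a repeat of GAGG and GAAG steps.

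The next sets show sites with the m6A core letters, sites in simple repeats and sites with fewer G than the first set. GGAC is in capitals in the sites of Erp29 (chr5:121444994-121445017, minus strand), Ier2 (chr8:84661666-84661689, minus), Pgd (chr4:149150455-149150478, minus) and Rpl41 (chr10:128548316-128548339, minus). The summit of YTHDC1 lay on the A of the GGAC in Ier2 and 5 nt from it in Erp29, and the summit of IGF2BP2 lay 1 nt from it in Pgd and 3 nt from it in Rpl41.
Erp29: gccagctgtgGGACccctgtgggt
Ier2: gccagggtgtGGACccgccctagg
Pgd: gtgctgcccaGGACctgaccctgt
Rpl41: ctgagggccgGGACaagctatcgg
The repeat sites are centred on YTHDC1 summits in Treml2 (chr17:48310374-48310397, plus) and Mylk4 (chr13:32703374-32703397, minus), and hold no run to mark.
Treml2: aaggaggaggaagaggaagaggag
Mylk4: ttcctcttcttcctcttcttcctc
The Treml2 site is a purine repeat in its own transcript. Mylk4 holds the complementary pyrimidine repeat, with no G on the transcript strand. The lists carry no strand, so for such sites it cannot be told from which strand the reads came.
The sites with fewer G are centred on summits of IGF2BP2 in Lrrc39 (chr3:116582567-116582590, plus) and Baz2b (chr2:59900534-59900557, minus), and of all 3 readers in Crispld1 (chr1:17764864-17764887, plus), and also hold no run of 3 G.
Lrrc39: gagcatcttttctctctggagtaa
Baz2b: atgcatattaactttttccttaag
Crispld1: cctggcaggtacttctgcaggcca
They held 5, 2 and 7 G, at peaks with folds of 27.3, 17.5 and up to 17.8. Even the YTHDC1 summit of Maz, stronger than its YTHDF2 summit, held no run of 3 G, so the guanine content described further on is an average over peaks and not a feature of every strong one.

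Peaks in 3' UTRs were a small share of each list. In the IGF2BP2 list the share was 3.45% (interval 3.04 to 3.90%), in the YTHDF2 list 6.92% (6.01 to 7.91%) and in the YTHDC1 list 7.03% (6.53 to 7.55%). Summits in CDS made up 52.7%, 53.5% and 29.3% of the same lists, and summits in 5' UTRs 2.15%, 3.46% and 7.09%. The rule that no transcript of the gene may have CDS at the summit weighed most on IGF2BP2: with such summits included, its share was 9.76%, against 12.5% for YTHDF2 and 10.1% for YTHDC1.

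Peaks in 3' UTRs were weaker than CDS peaks of the same libraries. The fold is the authors' value of the pileup over the local background. Its median was 4.88 in 3' UTRs and 5.92 in CDS for IGF2BP2, 4.91 and 5.81 for YTHDF2, and 5.89 and 6.77 for YTHDC1. In introns the medians were 5.72, 4.94 and 5.89, near those of 3' UTRs for YTHDF2 and YTHDC1. A fold of at least 10 was reached by 20 of 244 IGF2BP2 peaks (8.20%, interval 5.08 to 12.4%), against 19.6% of the whole list. For YTHDF2 it was 13 of 196 (6.63%, 3.58 to 11.1%) against 14.0%, and for YTHDC1 120 of 700 (17.1%, 14.4 to 20.1%) against 20.5%. In each of the 3 lists the share in 3' UTRs was under that of the whole list by more than its counting interval, and YTHDC1 came closest to its list.

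**Figure D1:**
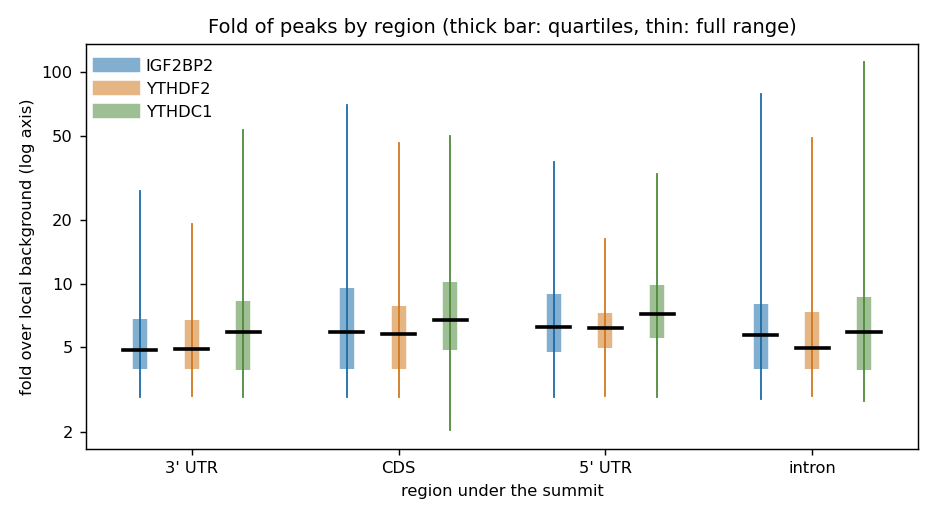
Fold over local background (vertical, log axis) of all peaks by the region under the summit (horizontal) and by reader (colour), with black lines for medians, thick bars for quartiles and thin lines for the full range. The 3' UTR medians of 4.88 (IGF2BP2) and 4.91 (YTHDF2) sit lower than the CDS medians of 5.92 and 5.81, and the 3' UTR peaks of YTHDC1 reach a fold of 53.2.

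Most 3' UTR peaks rested on few fragments. The median pileup at the summit, the number of fragments stacked there, was 4, 4 and 5 (IGF2BP2, YTHDF2, YTHDC1). A pileup of 3 or less was behind 43.9%, 44.9% and 28.6% of the peaks, against 27.8%, 32.8% and 23.4% of the whole lists. A −log10 q of at least 5 was reached by 168 IGF2BP2 peaks (68.9%, list 82.3%), by 128 for YTHDF2 (65.3%, list 77.1%) and by 468 for YTHDC1 (66.9%, list 70.1%). Peaks of exactly 100 bp, the smallest width in the lists, made up 46.7%, 48.0% and 31.1% of 3' UTR peaks.

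Along the 3' UTR, summits of all 3 readers lay toward the stop codon and away from the transcript end. The median summit lay 467 nt after the stop codon for IGF2BP2, 361 nt for YTHDF2 and 569 nt for YTHDC1, at a relative position of 0.366, 0.323 and 0.385 of the UTR. Within 200 nt of the stop codon lay 68 IGF2BP2 summits (27.9%, interval 22.3 to 33.9%), where 18.6% of the bases of the same UTRs lie. YTHDF2 had 64 there (32.7%, 26.1 to 39.7%) against 22.6% of bases, and YTHDC1 176 (25.1%, 22.0 to 28.5%) against 16.7%. Each share exceeded its base share beyond counting error for IGF2BP2, YTHDF2 and YTHDC1.

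Part of the peaks close to the stop codon straddled it. The peak interval reached into the CDS in 24 IGF2BP2, 31 YTHDF2 and 72 YTHDC1 peaks, all with summits within 200 nt of the stop codon. Without them the shares near the stop codon were 20.0%, 20.0% and 16.6%, against base shares of 16.8%, 18% and 15.3%. Leaving these peaks out can only lower the share near the stop codon, because every one of them lay there, so the lower values say nothing about whether summits are drawn to it. The median fold was 4.77 within 200 nt and 4.88 farther away for IGF2BP2, 4.92 and 4.91 for YTHDF2, and 6.01 and 5.87 for YTHDC1.

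The far end of the 3' UTR was sparsely bound. Within 200 nt of the transcript end lay 25 IGF2BP2 summits (10.2%, interval 6.74 to 14.8%), 23 YTHDF2 summits (11.7%, 7.59 to 17.1%) and 74 YTHDC1 summits (10.6%, 8.39 to 13.1%), against the same base shares of 18.6%, 22.6% and 16.7%. In the last 100 nt, where the polyadenylation signal lies in most messages, the shares were 5.33%, 4.08% and 2.71% against 9.71%, 12.1% and 8.48% of bases. The end is that of the annotated transcript, and which end the cells used was not measured. Library fragments were selected at 250 to 450 bp, and the part of fragment length in this low share was not tested.

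**Figure D2:**
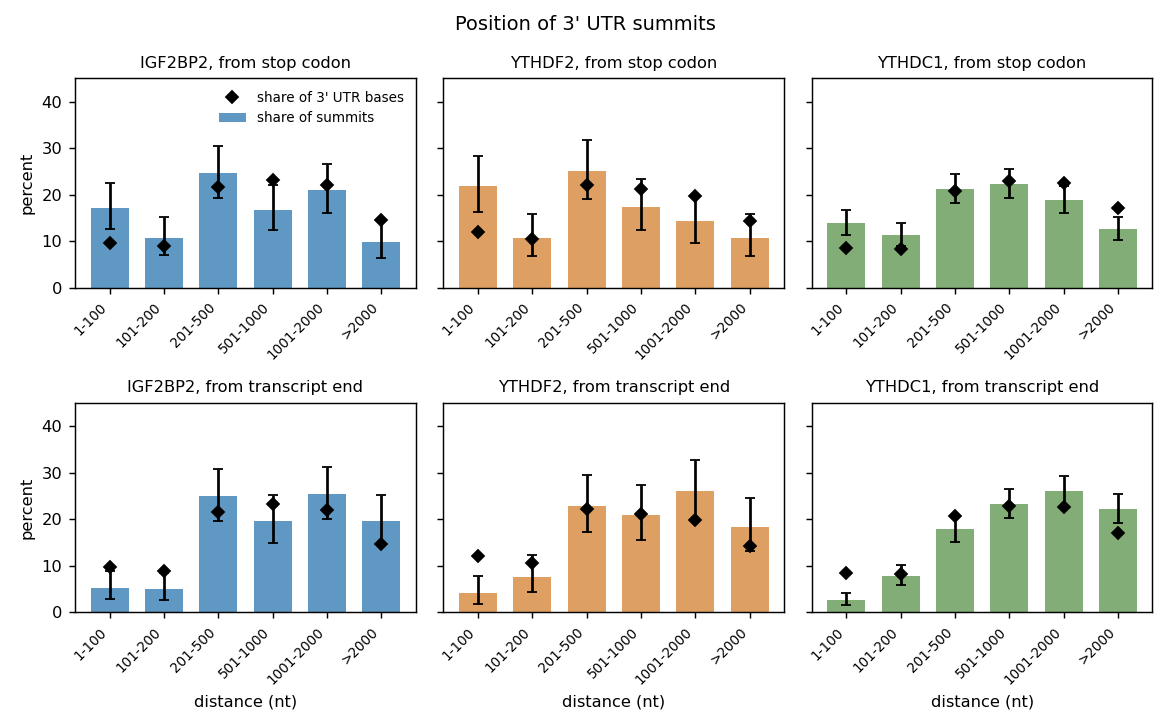
Share of 3' UTR summits (bars, percent, with exact 95% intervals) by distance in nt from the stop codon (top) and from the transcript end (bottom), with diamonds for the share of bases of the same UTRs. In the first 100 nt the bars stand at 17.2%, 21.9% and 13.9% over diamonds at 9.71%, 12.1% and 8.48%, and in the last 100 nt they stand lower than the same diamonds.

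Bound 3' UTRs were long. Their median length was 1615.5 nt for IGF2BP2, 1505.5 nt for YTHDF2 and 1788 nt for YTHDC1, where 1 transcript of each of 21006 genes gave a median of 800 nt. A longer UTR offers more bases for a summit, and that part was not tested. UTRs of up to 500 nt held 25 IGF2BP2, 32 YTHDF2 and 53 YTHDC1 peaks, and in them 20, 24 and 39 summits lay within 200 nt of the stop codon, a stretch with 64.6%, 68.7% and 63.1% of the bases. Between 500 and 1000 nt of UTR length the shares near the stop codon were 24.4%, 33.3% and 31.5%, over 28%, 28.6% and 27.6% of bases, so IGF2BP2 was under its base share there. Between 1000 and 2000 nt they were 25.3%, 25.4% and 23.4%, over 14.2%, 14.3% and 14%. In UTRs over 4000 nt they were 12.1%, 12% and 9.47%, from 4, 3 and 9 summits, over 3.87%, 3.61% and 3.75% of bases. Nearly all summits lay in the last exon: 92.2% for IGF2BP2, 95.4% for YTHDF2 and 97.1% for YTHDC1. In 18, 10 and 21 cases the transcript used was not of the protein-coding type, such as one annotated for nonsense-mediated decay. Other transcripts of the gene could still hold the summit in a 3' UTR.

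Around the summits the RNA was rich in guanine. In windows of 50 bases on each side of the summit, G made up 26.9% of bases for IGF2BP2 against 23.2% over the same UTRs, 30.9% against 24.9% for YTHDF2, and 33.6% against 25.3% for YTHDC1. Cytosine did not share the rise, with 21.4%, 22.9% and 21.8% in windows and 22.1%, 23.6% and 24.1% in the UTRs. The GC content of the window was higher than that of its own UTR in 166 of 244 IGF2BP2 peaks (68.0%), for YTHDF2 in 160 of 196 (81.6%) and for YTHDC1 in 587 of 700 (83.9%). The excess of G was local. For YTHDC1 it was 34.4% in the first 25 nt after the summit and 25.1% between 175 and 199 nt after it. CDS peaks showed the same feature, with G at 32.6%, 33.6% and 36.4% in windows against 27.9%, 28.3% and 28.7% over the same CDS. Whether library amplification or fragmentation had a part in this was not tested.

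**Figure D3:**
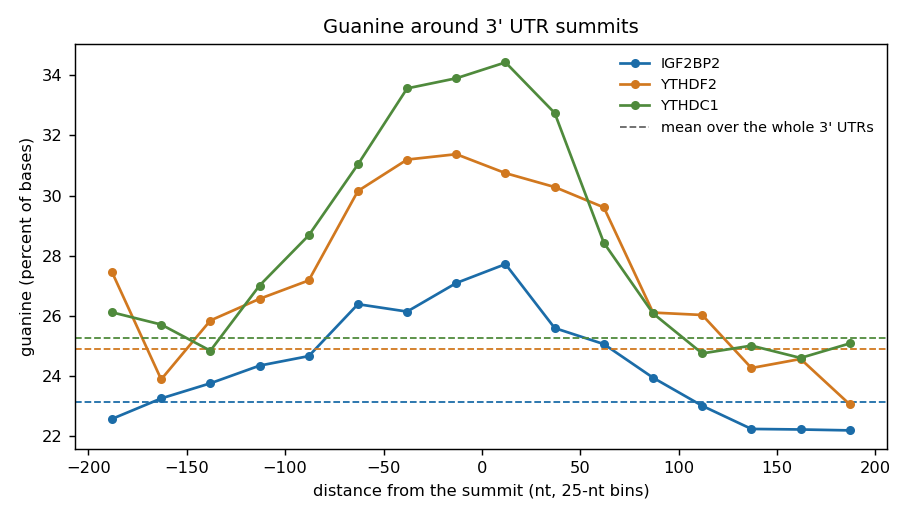
Percent of bases that are guanine (vertical) in 25-nt bins by distance from the summit in the transcript (horizontal, nt), for the 3' UTR peaks of each reader, with dashed lines for the mean over the same UTRs. YTHDC1 rises to 34.4% next to the summit from a UTR mean of 25.3%, and IGF2BP2 stays lowest with a UTR mean of 23.2%.

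Among all 256 words of 4 letters, the largest gain in the windows was that of a word made of A and G alone for each reader. The word was searched on the transcript strand, and its share was set against that of all windows of the same length in the same UTR. GAGG was in 48.4% of IGF2BP2 windows against 35.4%, in 56.1% of YTHDF2 windows against 40.2%, and in 68.4% of YTHDC1 windows against 42.8%. It ranked first by the difference for YTHDF2 and YTHDC1. GAAG ranked first for IGF2BP2, in 54.1% of windows against 39.2%, and GGAG was second for YTHDC1, in 68.9% against 43.7%. GAGG overlaps GGAG and GAGA in the same stretches, so these words are not separate findings. Words with T or C were also among the 8 largest gains, 5 of them for IGF2BP2, 4 for YTHDF2 and 2 for YTHDC1. TGCT, for example, was in 54.9% of IGF2BP2 windows against 44.5%, and TGGA in 59.7% of YTHDF2 windows against 44.6%.

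The m6A core GGAC did not stand out in the 3' UTR windows of IGF2BP2 or YTHDF2. It was in 24.2% of IGF2BP2 windows (interval 18.9 to 30.1%) against 26.8% in all windows of the same UTRs, and in 31.6% of YTHDF2 windows (25.2 to 38.6%) against 31.1%. For YTHDC1 it was in 36.3% (32.7 to 40.0%) against 30.9%, a difference of 5.42 percentage points and rank 44 of the 256 words. At a −log10 q of at least 5 the YTHDC1 share was 35.3% (30.9 to 39.8%) against 31.8%, within counting error. Over windows of the UTRs of all genes the share was 23.7%. Of the 12 words made of the same letters, GGAC had the smallest difference for IGF2BP2 and YTHDF2 and ranked 4 for YTHDC1. The longer GGACT was in 9.84%, 13.8% and 15% of windows against 9.97%, 11.4% and 10.9%. Its excess for YTHDC1 was beyond counting error (interval 12.4 to 17.9%). The GGACT differences for IGF2BP2 (6.40 to 14.3%) and YTHDF2 (9.28 to 19.4%) were within it. In CDS windows GGAC was in 43.4%, 42.1% and 43.0%, against 39.3%, 39.1% and 40.8% over the same CDS. On the opposite strand of the 3' UTR windows GGAC was in 23%, 33.2% and 30.3%, against 25.7%, 28.6% and 31.4%.

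The polyadenylation signal was scarce under the summits of all 3 readers, and AU-rich words under those of YTHDF2 and YTHDC1. AATAAA was in 2.87% of IGF2BP2 windows (interval 1.16 to 5.82%) against 8.71% over the same UTRs, in 1.02% of YTHDF2 windows (0.124 to 3.64%) against 8.64%, and in 1.43% of YTHDC1 windows (0.687 to 2.61%) against 6.77%. ATTTA, the core of the AU-rich elements that mark unstable messages, was in 4.59% of YTHDF2 windows (2.12 to 8.54%) against 9.50% and in 1.43% of YTHDC1 windows (0.687 to 2.61%) against 9.52%. For IGF2BP2 it was in 9.43% (6.07 to 13.8%) against 13.0%, within counting error. Runs of TTTTT were in 10.2% of YTHDF2 windows (6.35 to 15.3%) against 19.2% and in 7.57% of YTHDC1 windows (5.72 to 9.79%) against 17%. For IGF2BP2 the share was 20.5% (15.6 to 26.1%) against 23.7%, again within counting error. On the opposite strand the same words were also lower than over the UTRs. AATAAA was in 4.51%, 1.53% and 1.14% of windows (IGF2BP2, YTHDF2, YTHDC1) against 8.31%, 5.89% and 5.80%. ATTTA was in 9.43%, 2.04% and 2.57% against 15.2%, 9.72% and 9.70%. TTTTT was in 11.1%, 7.14% and 5.14% against 15.2%, 11.9% and 11.6%. The windows held less A and T than their UTRs, and the part of base composition was not tested.

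Sites of a decay factor and of a microRNA were rare in the windows. The Pumilio word TGTANATA was in 4 IGF2BP2 windows and in 0 of 196 YTHDF2 and 0 of 700 YTHDC1 windows, with exact upper limits of 1.86% and 0.526%, where the UTR shares were 2.20%, 1.51% and 1.55%. The YTHDF2 limit lay over its UTR share, and the YTHDC1 limit under it. The let-7 site CTACCTC was in 1, 1 and 7 windows (0.410%, 0.510% and 1.0%), against 0.413%, 0.520% and 0.758%. A word missing from a window says only that these letters are not there.

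The 3' UTR peaks spread thinly over genes. IGF2BP2 summits fell in 232 genes, YTHDF2 summits in 186 and YTHDC1 summits in 608, which are 1.1%, 0.88% and 2.88% of the 21145 genes with an annotated 3' UTR. A single 3' UTR peak was found in 221, 177 and 532 of them, and 3 or more in 1, 1 and 13. A CDS peak of the same reader lay in 44.8% of the IGF2BP2 genes (interval 38.3 to 51.5%), 23.1% of the YTHDF2 genes (17.3 to 29.8%) and 32.1% of the YTHDC1 genes (28.4 to 35.9%). For YTHDF2, 131 of 186 genes (70.4%) had a 3' UTR peak and no CDS or intron peak of that reader. The same held for 114 of 232 genes for IGF2BP2 and 304 of 608 for YTHDC1. The YTHDF2 list is the shortest. Of all 21145 genes, 1581 had a YTHDF2 peak in any region, against 2791 for IGF2BP2 and 4357 for YTHDC1. A shorter list leaves fewer CDS and intron peaks to find, and that part was not tested. The share of all genes with a CDS or intron peak was not computed. Peaks in 5' UTRs and in other exons were not checked.

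The strongest 3' UTR peaks of YTHDC1 lay in genes of varied function. Nfe2l1, which encodes the transcription factor that drives proteasome genes, had a fold of 53.2 with a pileup of 96, at 245 nt after the stop codon in a UTR of 1762 nt. YTHDF2 had its summit at the same base with a fold of 10.8, and IGF2BP2 had none. Treml2, a receptor-like gene of the TREM family, followed with 41.6 for YTHDC1, 12.2 for IGF2BP2 and 6.76 for YTHDF2 in the purine repeat printed earlier. That window has copies in 5 other genes at the YTHDC1 summit. Maz, a zinc finger factor gene, had 38.0 for YTHDC1, 8.08 for IGF2BP2 and 8.35 for YTHDF2, with summits 642, 587 and 607 nt after the stop codon. The YTHDF2 site of Maz held 16 G in 24 bases, the YTHDC1 site 10 and the IGF2BP2 site 7.

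Ltbr, Polr3b and Mylk4 of that group had a 3' UTR peak of 1 other reader. Ltbr, the lymphotoxin beta receptor, had a fold of 29.4 for YTHDC1 and 5.93 for YTHDF2, at 548 and 554 nt after the stop codon, close to the end of a UTR of 659 nt. Polr3b, a core subunit of RNA polymerase III, had 28.1 for YTHDC1 and 9.65 for IGF2BP2, at 114 and 100 nt. Mylk4, a myosin light chain kinase, had 32.4 for YTHDC1 and 18.7 for IGF2BP2 in the pyrimidine repeat, whose window has copies in 85 and 90 other genes. The gene of origin is uncertain for reads of Mylk4.

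The leading group of IGF2BP2 shared Mylk4, with an IGF2BP2 fold of 18.7, with that of YTHDC1. Lrrc39 had the highest 3' UTR fold of IGF2BP2, 27.3, against 9.81 for YTHDF2 and 6.78 for YTHDC1. Its summits lay 1294, 1285 and 1267 nt after the stop codon (IGF2BP2 peak chr3:116582442-116582640). These summits also lie in an exon of Trmt13 on the opposite strand, so the gene cannot be told apart without strand. Pigk, the catalytic subunit of the GPI transamidase that attaches proteins to their membrane anchor, had 21.2 for IGF2BP2 (chr3:152786243-152786942) and 5.83 for YTHDF2. Baz2b, a bromodomain gene, had 17.5 at 104 nt after the stop codon (chr2:59900461-59900624), and Arhgdib, which is expressed in blood cells, had 16.4 at 347 nt (chr6:136923703-136923876). Neither had a 3' UTR peak of the other readers. BC005624 had 19.6 for IGF2BP2 and 18.4 for YTHDC1 in a purine repeat with copies in 74 and 70 other genes.

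Rpl41 and Lars2 were higher in fold with IGF2BP2 and YTHDF2 than with YTHDC1, the reverse of Nfe2l1 and Maz. Rpl41, a ribosomal protein gene, had IGF2BP2, YTHDF2 and YTHDC1 folds of 17.5, 10.8 and 7.84, with summits 16, 15 and 14 nt after the stop codon. Its window has a copy in 1 other gene, the lincRNA Gm10076. Lars2, the mitochondrial leucyl-tRNA synthetase gene, had 16.1, 15.8 and 7.04, with pileups of 121, 96 and 72 at 330, 322 and 314 nt (IGF2BP2 peak chr9:123461819-123462185). The local background behind these Lars2 summits was 6.58, 5.13 and 9.38, where that behind the Rpl41 summits was 0.488, 0.290 and 0.658. No copy of the Lars2 window was found in other annotated transcripts, and the ribosomal RNA precursor was not part of that search. The gene of origin is therefore uncertain for reads of Lars2, and its folds may not describe its messenger RNA.

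High 3' UTR folds of YTHDF2 are given here beside those of the other readers. Eif1ad, which encodes a protein with an eIF1A-like domain, had 19.3 for YTHDF2 (chr19:5370208-5370352), 7.24 for IGF2BP2 and 12.1 for YTHDC1. Crispld1, a gene for a secreted protein, had 17.8 for YTHDF2 (chr1:17764825-17764948), 8.88 for IGF2BP2 and 10.8 for YTHDC1, and all 3 summits were at the same base 762 nt after the stop codon. Erp29, an endoplasmic reticulum chaperone gene, had 14.1 for YTHDF2 and 17.3 for YTHDC1, at 60 and 63 nt, next to the GGAC printed earlier.

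The next 3' UTRs were picked because their folds ranked high in every list, so that trait is the selection and not a result. The 3 lists share 1 input: where member summits of 2 lists fell on the same base, the backgrounds kept 1 ratio within 1% in 5 of 5, 3 of 3 and 7 of 7 cases. Values of the readers are therefore given side by side and no overlap is read from them. Arhgap19, a gene for a GTPase activating protein, had folds of 11.1, 13.5 and 27.8 (IGF2BP2, YTHDF2, YTHDC1), with summits at 784, 784 and 785 nt (YTHDC1 peak chr19:41769295-41769487). Tmsb4x, the actin-sequestering thymosin beta 4, had 10.0, 15.2 and 15.3 at 221, 234 and 236 nt in a UTR of 406 nt (YTHDC1 peak chrX:167207190-167207340). Pgd, an enzyme of the pentose phosphate pathway, had 8.58, 13.5 and 25.3, and its YTHDF2 and YTHDC1 summits lay at the same base 147 nt after the stop codon. Laptm5, a lysosomal membrane protein gene of blood cells, had 12, 8.02 and 11.9 over the run of 5 G printed earlier, at 1313, 1315 and 1318 nt.

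Some genes carried several 3' UTR peaks. The gene D17Wsu92e had 2 peaks of IGF2BP2, 3 of YTHDF2 and 4 of YTHDC1. Its highest IGF2BP2 fold was 8.91 at 2248 nt, its highest YTHDF2 fold 16.8 at 1380 nt and its highest YTHDC1 fold 21.1 at 2242 nt. Rcc2, a gene of chromosome segregation, had 1, 1 and 3 peaks, with folds of 11.0, 11.5 and 12.7 at 1078, 1114 and 1134 nt. Erbin, a scaffold gene of the ERBB2 receptor, had summits of YTHDF2 and YTHDC1 at the same base, 404 nt after the stop codon, with folds of 8.75 and 11.4. All 3 readers also had an Erbin summit within 62 nt of the end of the transcript used, with folds of 9.80, 10.0 and 6.01. The annotated gene runs farther, to chr13:103818787 on the minus strand, so this closeness depends on the transcript. Lasp1, an actin-binding gene, and Zfp740 had 4 YTHDC1 peaks each, with top folds of 8.71 and 9.73, and Atg4d, a protease of autophagy, had 3 IGF2BP2 peaks with a top fold of 11.8.

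**Figure D4:**
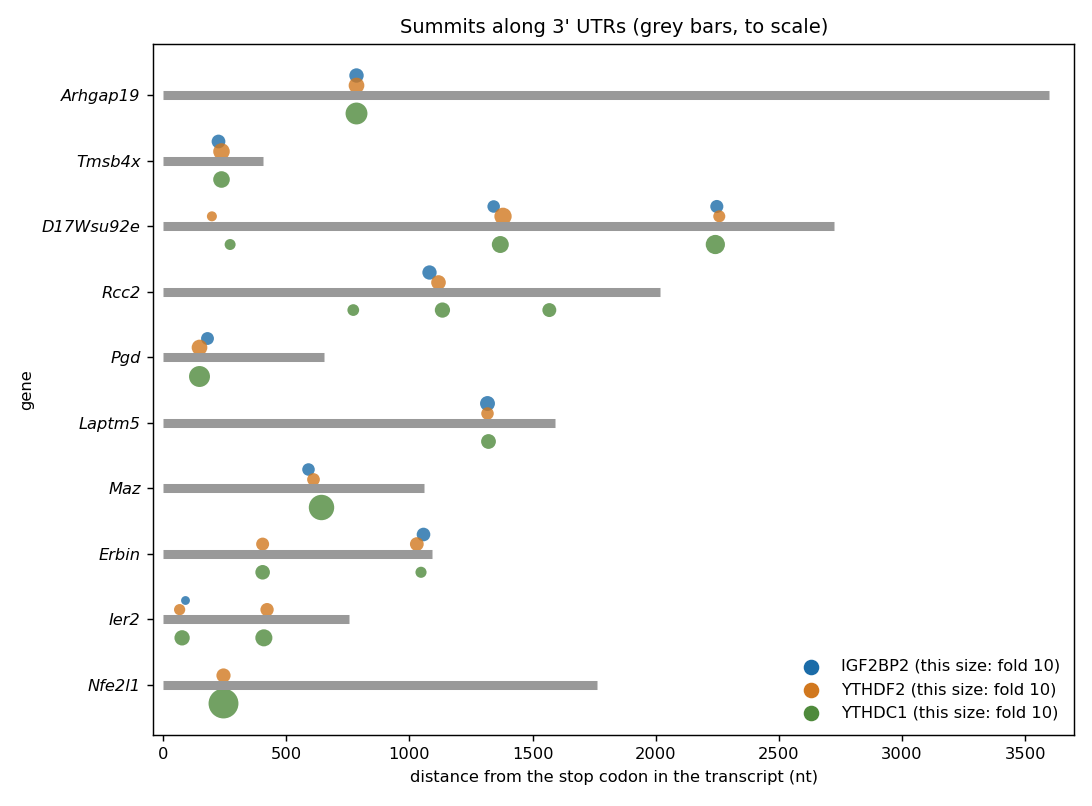
Summits along the 3' UTRs of 10 genes (rows), drawn to scale in nt from the stop codon (horizontal), with the area of each point growing with its fold and the colour giving the reader. Arhgap19 and Laptm5 show all 3 readers stacked within 5 nt, Nfe2l1 shows YTHDC1 and YTHDF2 at 245 nt, and 1 YTHDC1 peak of D17Wsu92e in another transcript is not drawn.

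Messages of immediate early and other short-lived genes were among those with 3' UTR peaks. Of 50 such genes, 6 had a 3' UTR peak of IGF2BP2 (12%), 4 of YTHDF2 (8%) and 10 of YTHDC1 (20.0%), beside 1.1%, 0.88% and 2.88% of all genes. Expression is not part of these lists, and its part in these shares was not tested. Ier2, an immediate early gene with a single exon, had 2 YTHDC1 peaks with folds of 16.3 and 12.8 at 409 and 77 nt, and 2 YTHDF2 peaks with 9.25 and 6.15 at 422 and 67 nt. Its IGF2BP2 peak reached 3.19. The AP-1 gene Jund had 14.5 for YTHDC1, 7.21 for YTHDF2 and 7.32 for IGF2BP2, and Fosb had 13.7 for YTHDC1 and 6.24 for IGF2BP2. Jun had 11.1 for YTHDC1 and no 3' UTR peak of the other readers. The median top fold of the list was 9.49 for YTHDC1, beside 5.89 over all genes with a 3' UTR peak.

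A list set up for transcription factors of blood stem cells and leukaemia gave 3, 4 and 7 of 37 genes (8.11%, 10.8% and 18.9%), beside 1.1%, 0.88% and 2.88% of all genes. Its 3 IGF2BP2 genes were Zfp36, Myb and Erg. Zfp36, with a fold of 5.63, is not a transcription factor gene and was also counted among the short-lived genes. Cebpa, the factor of myeloid differentiation, had 3 YTHDC1 peaks, the strongest with a fold of 17.3 at 73 nt after the stop codon (chr7:35120475-35120765), and a YTHDF2 peak of 6.49 at 55 nt. Sox4 had 14.3 for YTHDC1 at 1082 nt, where the lincRNA Gm26735 lies on the opposite strand. Erg had folds of 4.17, 4.01 and 9.42 (IGF2BP2, YTHDF2, YTHDC1) at 937, 937 and 901 nt, with pileups of 53, 41 and 185 over backgrounds of 11.9, 9.49 and 18.8. The pileup of 185 was the highest of any 3' UTR peak. Myb, a progenitor factor, had 4.93 for IGF2BP2 and 3.96 for YTHDF2 and no YTHDC1 peak in its 3' UTR.

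Genes of the translation and RNA-binding machinery had peaks more often elsewhere than in the 3' UTR, as did genes at large. Of all 21145 genes, 2791 had an IGF2BP2 peak in any region, 1581 a YTHDF2 peak and 4357 a YTHDC1 peak. A 3' UTR peak was in 232, 186 and 608 of them. Of 86 ribosomal protein genes, 36 had an IGF2BP2 peak in any region, 30 a YTHDF2 peak and 44 a YTHDC1 peak, and 3, 2 and 3 had one in the 3' UTR (3.49%, 2.33% and 3.49%, beside 1.1%, 0.88% and 2.88% of all genes). Of 25 translation factor genes the counts were 19, 19 and 21 for any region and 1, 0 and 2 for the 3' UTR (4%, 0% and 8%). Of 28 hnRNP genes, whose proteins coat nascent transcripts, 25, 20 and 25 were bound anywhere, and 4, 0 and 1 in the 3' UTR (14.3%, 0% and 3.57%). Hnrnpu had an IGF2BP2 fold of 8.39 there and Hnrnpa2b1 8.04. These counts take in gene length and expression, neither of which was matched.

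Of 41 genes of mRNA decay and the microRNA machinery, 2, 2 and 7 had a 3' UTR peak (4.88%, 4.88% and 17.1%, beside 1.1%, 0.88% and 2.88% of all genes). The YTHDC1 list also holds the most genes, and the difference between readers was not tested. Upf1, the helicase of nonsense-mediated decay, had 13.5 for YTHDC1 and 6.74 for YTHDF2, and Ago2, the slicer of the microRNA complex, had 7.75 for YTHDC1 and 4.93 for IGF2BP2. Of 19 cleavage and polyadenylation genes the counts were 0, 1 and 3 (0%, 5.26% and 15.8%), with Pcf11 at 9.06 for YTHDC1. Of 21 genes for m6A writers, erasers and readers, 0, 0 and 1 had one, the last the adaptor gene Rbm15b with a YTHDC1 fold of 4.91. That 4.76% is near the 2.88% of all genes, and 7, 4 and 9 of the 21 had a peak in some region.

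The genes of the axis named in the series title had no summit in a 3' UTR in the 3 lists, and this held for Prmt6 and for Mfsd2a. Of 9 arginine methyltransferase genes, 0 had a 3' UTR peak and 3, 1 and 1 had a peak in any region, and with 1.1%, 0.88% and 2.88% of all genes holding a 3' UTR peak a list this small says little. Among 16 genes of choline and phospholipid supply, 1, 1 and 4 had a 3' UTR peak (6.25%, 6.25% and 25%). Slc44a2, a choline transporter gene, had 8.87 with IGF2BP2, 7.91 with YTHDF2 and 23.5 with YTHDC1 (chr9:21354362-21354621), and the summits lay 781, 738 and 711 nt after the stop codon. Chka, the choline kinase gene that starts phosphatidylcholine synthesis, had a YTHDC1 fold of 5.79, and Pcyt1a, the next enzyme, 3.93. Of 18 glycolysis genes, 0, 0 and 3 had one (0%, 0% and 16.7%), led by hexokinase Hk2 with a YTHDC1 fold of 16.7 at 360 nt.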

How the data were processed

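RNA bound by 3 readers was measured in 1 library each. HISAT2, Trim Galore and bcl2fastq 2.17 are named, with the build GRCm38, in the submitters' processing notes. The peak caller is not given in the sources used here. Per the file headers and layout, the deposited lists give a fold (ratio), a −log10 p-value and q-value, a score, and a pileup signal at the summit. All are the authors' values, used to describe, rank or filter within a list. Peaks were called per library. Depth is unknown.

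Summits were assigned with Python 3.11.15 to GENCODE M21, in the main coding transcript where its 3' UTR held the summit and otherwise in another transcript of the gene. Distances count along the transcript. Words were counted in windows of 50 bases on each side of the summit and set against all such windows of the same UTR, so windows near the stop codon can hold CDS. Base shares weight each UTR by its peaks. Background was (pileup + 1) divided by fold, minus 1. Copies are matches of at least 90% identity over 80 bases in transcripts of other genes (blastn 2.17.0+). Counting was tested on simulated peaks with known positions. There is no test between readers, and intervals are binomial.

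Members and gene lists were chosen with earlier results of these data known. Named genes were the 8 with the highest fold per reader at a −log10 q of at least 5, the 8 whose lowest rank percentile over the 3 lists was highest, those with the most peaks (3 per reader at most), and up to 4 examples per list. 1 gene that this rule names is not reported here. Alternatives were stricter q, fold or pileup, other annotation rules, the peak middle, shorter windows and distances, and leaving out copied windows or peaks reaching CDS.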

Additional observations from a re-analysis of the deposited data

How the results depend on the processing

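Of 144 alternative values for 15 shares, 111 moved by less than their counting interval and 33 moved by more. With 100 nt in place of 200 nt, shares near the stop codon were 17.2%, 21.9% and 13.9% (IGF2BP2, YTHDF2, YTHDC1), and shares near the transcript end 5.33%, 4.08% and 2.71%. Without peaks that reach into the CDS, shares near the stop codon were 20.0%, 20.0% and 16.6%, and YTHDF2 windows with GGAC 24.8%. In 51-base windows GAGG was in 34.0%, 36.2% and 47.3%, and GGAC in 15.6%, 19.4% and 19.9%. With CDS of other transcripts allowed, IGF2BP2 windows had GAGG in 62.5% and GGAC in 34.2%. At a fold of at least 5, IGF2BP2 windows had GGAC in 18.6%. YTHDC1 windows had GAGG in 72.0% at a −log10 q of at least 5, in 72.5% at a fold of at least 5 and in 72.3% at a pileup of at least 5.

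The share of 3' UTR peaks in the list was 9.76%, 12.5% and 10.1% with CDS of other transcripts allowed, 2.34%, 5.46% and 6.47% at a fold of at least 5, and 2.35%, 5.47% and 6.44% at a pileup of at least 5. At a −log10 q of at least 5 it was 2.89% for IGF2BP2 and 5.86% for YTHDF2. Genes with a 3' UTR peak then numbered 123 for YTHDF2. They numbered 521 (IGF2BP2) and 304 (YTHDF2) with CDS allowed, 90, 78 and 364 at the fold minimum and 92, 80 and 370 at the pileup minimum.

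Shares near the stop codon stayed over, and those near the transcript end under, the base share in 10 of 10 alternatives for each reader. GAGG stayed over its UTR share in the same way. The excess near the stop codon was within the counting interval for each reader without peaks reaching into the CDS. That step can only lower the share near the stop codon. The excess was also within the interval for IGF2BP2 at the fold and pileup minimum, and for YTHDF2 with CDS allowed. GGAC stayed over its UTR share in 10 of 10 for YTHDC1. Its excess was within the counting interval at the q minimum (35.3%, 30.9 to 39.8%, against 31.8%), the fold minimum (34.9%, 30.4 to 39.7%, against 31.2%) and the pileup minimum (35.1%, 30.5 to 39.8%, against 31.1%). For IGF2BP2 it kept its side in 8 of 10 and turned over the UTR share with CDS allowed and in 51-base windows. For YTHDF2 it kept its side in 6 of 10 and turned under it at the fold and pileup minimum, with the peak middle and without peaks reaching the CDS. The cause was not tested. The alternatives on pileup, copied windows, peaks reaching the CDS and the word GAGG were chosen after seeing the data. No paired analysis was possible because each reader has 1 library and no test was run.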

Other observations

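Marker lists of blood cells are small, and 1.1%, 0.88% and 2.88% of all genes had a 3' UTR peak of IGF2BP2, YTHDF2 and YTHDC1, so few hits can fall in them. Of 11 lymphoid and 8 erythroid marker genes, 0 had a 3' UTR peak of any reader, and of 8 mature myeloid markers Itgam alone had one, with folds of 4.93 for IGF2BP2 and 7.73 for YTHDC1. The window of the YTHDC1 peak of Itgam has copies in 47 other genes, so its gene of origin is uncertain. Of 10 progenitor markers, Myb had IGF2BP2 and YTHDF2 peaks and Prtn3, a granule protease gene of myeloid progenitors, had a YTHDC1 peak of 11.5 at 19 nt after the stop codon. Peaks are not expression levels, and the purity of the fraction was not tested.

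Repeats of TG stood out beside the purine words. TGTGTG, searched as CACACA on the opposite strand, was in 14.8% of IGF2BP2 windows, 13.3% of YTHDF2 windows and 13.6% of YTHDC1 windows, against 7.44%, 7.74% and 8.06% over the same UTRs. CACACA on the transcript strand, a word known for IGF2BP binding, was in 5.74%, 1.53% and 1.43% of windows, against 4.43%, 3.72% and 4.06% over the same UTRs. The differences for IGF2BP2 (interval 3.17 to 9.44%) and YTHDF2 were within counting error, and the YTHDC1 share lay under its UTR share. A copy of the window lay in another gene for 54 of the 1140 peaks (4.74%), in 10 or more genes for 16 of them, and 43 summits lay in an exon of a gene on the opposite strand.

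Of 30 replication and mitosis genes, 2, 2 and 2 had a 3' UTR peak (6.67% for each reader), and of 24 apoptosis genes 2, 1 and 1 (8.33%, 4.17% and 4.17%), beside 1.1%, 0.88% and 2.88% of all genes. The lists share 1 input, so the values are given side by side. The DNA helicase gene Mcm6 had folds of 6.90, 7.91 and 13.7 (IGF2BP2, YTHDF2, YTHDC1) at 13, 26 and 26 nt after the stop codon. Cdk6, a cell cycle kinase gene with a 3' UTR of 10217 nt, had 7.43, 5.66 and 5.44 at 8434, 8431 and 8432 nt. Of 24 selenoprotein genes, 1, 0 and 0 had one, Selenof with an IGF2BP2 fold of 4.93, which is near the share of all genes.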
